A study of Mus musculus with 9 samples.

Results

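The 8 loci described here, at Dhx37, Tmem185b, Phactr1, Ddhd1, 1110018N20Rik, Sh3gl3, Ubxn4 and Zfhx3, are places in the mouse genome where CpG methylation in the nucleus accumbens read higher in 4 libraries labelled Susceptible than in 5 labelled Control. They were picked from a comparison of these same 2 groups, for the smallest unadjusted p-values among features with a higher Susceptible level. Dhx37, Tmem185b, Phactr1 and Ddhd1 came from 1041809 tested tiles of 1000 bp, 1110018N20Rik, Sh3gl3 and Ubxn4 from 31613 windows of 1000 bp on each side of a gene end, and Zfhx3 from 5627449 single CpGs. The difference between the groups is therefore the reason for their choice and is given as a description, without a test. They are 8 of 30878 genes with a tested start window. What follows concerns how wide the shifted stretches were, which cytosines and strands carried them, and where in the genes they lay.

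The samples were frozen punches of the nucleus accumbens, the reward-related ventral part of the striatum, from male C57BL/6J mice of 8 weeks. Whole-genome bisulfite sequencing was applied, in which unmethylated cytosines are converted and methylated ones are not, so that the share of calls left as cytosine gives the methylation level in percent. The labels attach the same protocol to all 9 libraries, Controls included: 10 daily defeats by a CD1 aggressor. They do not say how Controls were handled, how susceptibility was scored, or how many animals went into a library, so the spread between libraries may be partly technical. A punch averages over all of its cells, so a change within a cell type and another mix of cell types cannot be told apart.

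CpG methylation is usually low in CpG-rich stretches around active gene starts, climbs steeply at the edges of those stretches, and is high through most of the rest of the genome. Sites of intermediate level within genes often mark regulatory elements used by some of the cells in a tissue. A window that lies across such an edge holds both unmethylated and methylated cytosines, so its level depends on the methylation of each cytosine and on how many calls each one receives.

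The libraries differed in ways not limited to these loci. Listed calls ran from 313475624 to 430312082 in Control and from 432409939 to 570984634 in Susceptible libraries, and only cytosines with at least 10 calls are listed, so a cytosine can be present in one library and missing from another. Mitochondrial CpGs, which normally read low, were at 2.33 to 3.62% in Control and 8.96 to 15.1% in Susceptible libraries. In Control 5 and Control 8 the strands of the same CpG disagreed most, with a Pearson statistic 18.4 and 19.7 times its binomial value, against 2.38 to 6.11 in the other libraries. Over all tiles, no tile passed a Benjamini-Hochberg adjusted p of 0.05 by the quasi-binomial model (0 calls, 45605 tiles at an unadjusted p under 0.05) or by limma on logit levels (0 calls, 33856 tiles). Of the tested tiles 2.18% were higher in Susceptible libraries at an unadjusted p under 0.05. Without Susceptible 6 that number fell from 22751 to 10995 tiles.

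An annotated start site lies in 5 of the windows, those of Dhx37, Tmem185b, 1110018N20Rik, Sh3gl3 and Ubxn4. The 250 bases before each of these starts are shown because, as a whole, these stretches read low in both groups while the windows around them differed. Their CpGs are in capitals. The sequences are those of RefSeq, GRCm38.p6, written 5′ to 3′ along the gene, at chr5:125434049-125434298 (minus strand), chr1:119525904-119526153, chr2:167189173-167189422, chr7:82174546-82174795 and chr1:128243887-128244136 (plus strand).
Dhx37: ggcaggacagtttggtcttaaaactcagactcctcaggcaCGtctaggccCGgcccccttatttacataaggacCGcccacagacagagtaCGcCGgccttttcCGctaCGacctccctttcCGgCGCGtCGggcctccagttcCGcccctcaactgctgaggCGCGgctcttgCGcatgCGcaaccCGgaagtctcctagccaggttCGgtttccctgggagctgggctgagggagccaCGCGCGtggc
Tmem185b: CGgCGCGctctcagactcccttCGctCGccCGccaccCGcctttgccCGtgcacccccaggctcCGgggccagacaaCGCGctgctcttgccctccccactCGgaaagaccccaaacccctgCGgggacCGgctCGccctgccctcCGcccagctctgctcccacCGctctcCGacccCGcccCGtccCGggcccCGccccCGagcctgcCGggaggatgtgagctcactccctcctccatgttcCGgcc
1110018N20Rik: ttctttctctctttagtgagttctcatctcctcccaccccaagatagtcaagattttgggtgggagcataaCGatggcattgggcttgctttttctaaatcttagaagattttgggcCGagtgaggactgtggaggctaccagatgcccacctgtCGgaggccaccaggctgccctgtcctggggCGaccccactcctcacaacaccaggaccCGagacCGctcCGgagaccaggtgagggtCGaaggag
Sh3gl3: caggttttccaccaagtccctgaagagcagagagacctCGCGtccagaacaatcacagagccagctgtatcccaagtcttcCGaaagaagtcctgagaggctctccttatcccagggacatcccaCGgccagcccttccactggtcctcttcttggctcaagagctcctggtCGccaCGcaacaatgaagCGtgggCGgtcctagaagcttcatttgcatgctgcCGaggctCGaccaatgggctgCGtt
Ubxn4: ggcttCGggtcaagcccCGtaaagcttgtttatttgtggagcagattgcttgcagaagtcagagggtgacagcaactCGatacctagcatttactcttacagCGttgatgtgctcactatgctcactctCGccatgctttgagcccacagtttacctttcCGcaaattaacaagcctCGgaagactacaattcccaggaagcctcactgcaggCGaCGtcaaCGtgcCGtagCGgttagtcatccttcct

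The Dhx37 promoter held 21 CpGs, more than 83.5% of the 32619 promoter windows in the table, and the Tmem185b promoter 25, more than 89.3%. Those of Ubxn4, Sh3gl3 and 1110018N20Rik held 12, 11 and 8. Methylation over the Dhx37 stretch was 0.446% ± 0.618 (SD, n = 5) in Control and 0.955% ± 0.542 (n = 4) in Susceptible libraries. At Tmem185b the levels were 0.624% ± 0.889 and 1.51% ± 0.399, and at Sh3gl3 1.44% ± 1.04 and 3.04% ± 1.34. At Ubxn4 they were 0.604% ± 1.12 and 1.47% ± 1.65, and at 1110018N20Rik 1.18% ± 1.72 and 2.003% ± 0.624. The groups overlapped in all 5 promoters.

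Single promoter CpGs could still differ. At position 82174778 in the Sh3gl3 promoter all 5 Control libraries read 0%, and the Susceptible libraries read 6.38, 11.1, 18.2 and 5.13%. This CpG had fewer than 20 calls in at least 1 library. Both strands of the stretches were searched for 4 motifs, whose matches in these promoters share no base. The site of NRF1, the rarest, is in 0.788% of all promoter stretches of this length and in that of Dhx37, at chr5:125434116-125434125, where its CpGs read 0.987% in Control and 1% in Susceptible libraries. CCGGAAGT, a site of ETS factors that 2.90% of promoters hold, is in the Dhx37 promoter, where its CpG read 1.47% in Control and 0% in Susceptible libraries. GGGCGG, the box bound by Sp and KLF factors, is in 32.96% of promoters, and in the Dhx37, Tmem185b and Sh3gl3 stretches. Of its 2 matches at Dhx37, the one at chr5:125434150-125434155 read 4.07% in Control and 9.64% in Susceptible libraries. Its other match, at chr5:125434220-125434225, read 1.43 and 0%. At the 3 matches of Tmem185b the CpGs read 0% in Control and 0 to 1.32% in Susceptible libraries, and at that of Sh3gl3 0% in both groups. CCAAT is in 34.0% of promoters, and in those of 1110018N20Rik and Sh3gl3. A match says only that these letters are there.

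**Figure D1:**
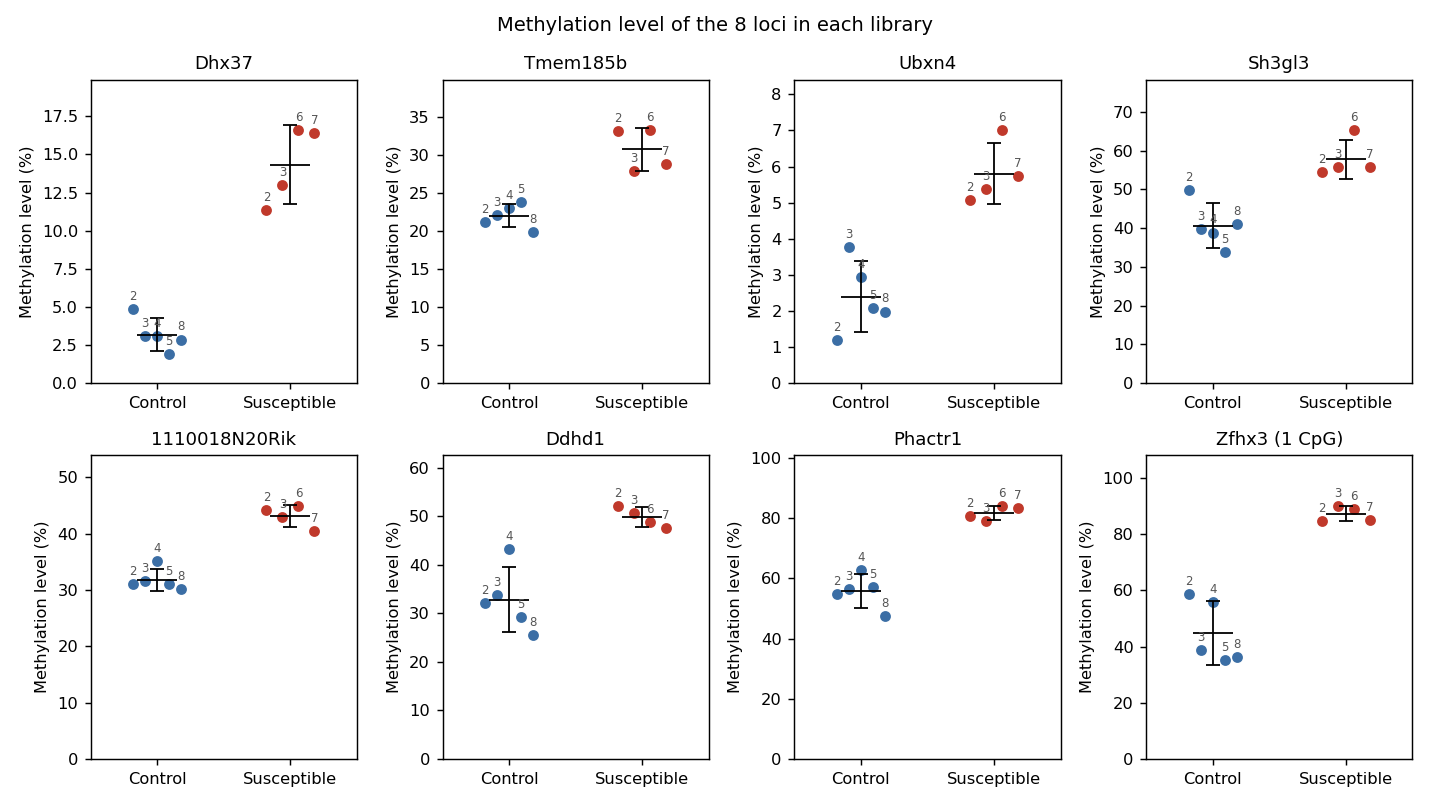
Methylation level (percent of calls) of the 8 chosen windows in each library. Points are libraries with their replicate number, bars the mean ± SD of 5 Control (blue) and 4 Susceptible (red) libraries. In each panel the lowest Susceptible library lies above the highest Control library, from 1.31 points at Ubxn4 to 25.9 points at the Zfhx3 CpG.

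The 2 groups were apart in all 8 windows. That separation is how they came to be chosen, and nothing is read from it. Such a separation, with Susceptible higher, was seen in 0.598% of all tiles, 0.939% of gene end windows and 0.325% of single CpGs. The opposite, with Susceptible lower, was seen in 0.96% of tiles and 1.46% of single CpGs. Among CpGs with at least 20 calls in every library the groups were apart with Susceptible higher in 0.371%. The Susceptible mean was higher at 46.9% of all tested CpGs. Counts of single CpGs within the windows use the calls by which the windows were chosen, so they are a description only. The plot of levels by library shows that the windows start from very different Control levels, between 2.40% at Ubxn4 and 55.8% at Phactr1.

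Dhx37 encodes a DEAH-box RNA helicase needed to assemble the small ribosomal subunit. Its window, chr5:125434001-125435000, spans the start of the gene, which lies on the minus strand, and 13.9% of it is inside the gene. The Control libraries read 4.89, 3.10, 3.12, 1.90 and 2.87% (replicates 2, 3, 4, 5 and 8), with a mean of 3.18% ± 1.08 (SD, n = 5). The Susceptible libraries read 11.4, 13.0, 16.6 and 16.4% (replicates 2, 3, 6 and 7), with a mean of 14.3% ± 2.57 (n = 4). The difference of 11.2 points did not come from the promoter CpGs shown above. It followed 10 highly methylated cytosines upstream, which took 10.4 to 17.9% of the calls in Susceptible but 1.89 to 4.54% in Control libraries.

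Within this set, 7 reverse-strand cytosines, 528 to 581 bp upstream of the listed start site, were listed in at least 3 Susceptible and at most 1 Control libraries each. They received 111, 75, 194 and 153 calls in the Susceptible libraries, against 20 and 13 in Control 2 and 3 and none listed in Control 4, 5 and 8. There, 6 CpGs follow each other at a spacing of 2 bp, from position 125434619 to 125434629. None of the 14 CpGs with at least 10 calls in all 9 libraries had groups that did not overlap, and 5 of the 14 had a higher Susceptible mean, against 46.9% of all tested CpGs. Over CpGs listed in every library the difference was 1.45 points, on the forward strand 1.02 and on the reverse strand 18.2.

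Tmem185b encodes a multipass membrane protein. Its window, chr1:119526001-119527000, holds the start site and 847 bp of the gene, and with 80 listed CpGs it was denser than 99.6% of tiles. The Control libraries read 21.2, 22.1, 23.0, 23.8 and 19.9%, a mean of 21.98% ± 1.52, and the Susceptible libraries 33.1, 27.8, 33.2 and 28.8%, a mean of 30.7% ± 2.84. The difference was 8.77 points. The window is cut by a sharp edge: the 200-bp bin at its centre read 3.05 and 4.24% in Control and Susceptible libraries, and the next bin inside the gene 80.2 and 79.6%. No bin of the window had groups that did not overlap.

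Single CpGs of Tmem185b showed no common direction. Of 60 CpGs with 10 calls in every library, 24 had a higher Susceptible mean and 0 had groups that did not overlap. The median difference was 0 points. Of cytosines listed in at least 2 libraries of each group, 43 were higher and 43 lower. Calls at cytosines methylated at 50% or more made up 20.5 to 25.2% of the window's calls in Control and 30.03 to 35.5% in Susceptible libraries. The level within those cytosines was 88.6% in Control and 86.4% in Susceptible libraries. With every CpG given the same weight the difference turned to -0.67 points. Over the 71 cytosines listed in all 9 libraries, where calls per cytosine still differed, it was 9.52 points.

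Ubxn4 encodes a protein of the endoplasmic reticulum membrane that recruits the ATPase p97 for the removal of misfolded proteins. Its window, chr1:128242898-128244898, is centred on the gene's outer start and overlaps the long noncoding RNA gene Gm41949. The Control libraries read 1.21, 3.77, 2.93, 2.08 and 1.99%, a mean of 2.40% ± 0.982, and the Susceptible libraries 5.08, 5.38, 7.003 and 5.75%, a mean of 5.80% ± 0.845. The difference was 3.41 points, the smallest of the 8. Of 68 CpGs covered in every library, 32 had a higher Susceptible mean, and the median difference was 0 points. Of cytosines listed in at least 2 libraries of each group, 43 were higher and 26 lower. The groups did not overlap at 1 CpG, 128244302, with 0% in all Control and 5.26, 6.52, 19.3 and 23.7% in the Susceptible libraries. It had fewer than 20 calls in at least 1 library. Of 38 CpGs with at least 20 calls in every library, 0 had groups that did not overlap.

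The higher reading at Ubxn4 was again carried by methylated cytosines at the outer edge, 15 between positions 128242901 and 128243605. They took 0.489 to 3.26% of calls in Control and 3.70 to 6.56% in Susceptible libraries. At positions 128242905 and 128242908, the forward cytosines were listed in all 4 Susceptible libraries, at means of 89.4 and 95.5%, and in no Control library. The forward strand gave a difference of 6.12 points and the reverse strand 0.259, and the groups overlapped on both. Over CpGs listed in all libraries 0.785 points remained.

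Sh3gl3 encodes endophilin A3, which bends membranes during the uptake of vesicles. Its window, chr7:82172808-82174808, is centred on the outer gene bound, and the listed start site lies at position 82174796. Control libraries read 49.7, 39.7, 38.9, 33.7 and 41.1%, a mean of 40.6% ± 5.80, and the Susceptible libraries 54.4, 55.8, 65.2 and 55.7%, a mean of 57.8% ± 4.997. The difference of 17.2 points was uneven between strands, with 2.20 points on the forward and 20.004 points on the reverse strand. Cytosines methylated at 50% or more took 28.2 to 54.8% of calls in Control and 53.2 to 63.0% in Susceptible libraries.

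A higher level of single cytosines was also seen at Sh3gl3, at the edge of the unmethylated stretch. The reverse cytosine at position 82174353 had a mean of 12.3% in Control and 57.6% in Susceptible libraries, and that at 82174348 of 28.6 and 60.5%, while the forward cytosines of the same CpGs read 44.6 and 53.1%, and 47.4 and 47.3%. Past the edge, the bins at 4.68 and 4.70% and at 1.26 and 3.09% (Control and Susceptible) were low in both groups. Of 14 CpGs covered in every library 9 had a higher Susceptible mean and 2 had groups that did not overlap, the CpG at 82174353 and the promoter CpG at 82174778. Of the 4 with at least 20 calls in every library, the groups did not overlap at 1, that at 82174353.

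1110018N20Rik is a long noncoding RNA gene. In its window, chr2:167188027-167190027, the Control libraries read 31.1, 31.6, 35.1, 31.0 and 30.2%, a mean of 31.8% ± 1.92. The Susceptible libraries read 44.2, 42.9, 44.9 and 40.5%, a mean of 43.1% ± 1.93, which is 11.3 points higher. The higher readings lay outside the gene bounds of the RNA, over about 400 bp upstream of it. In the bin from 167188201 to 167188400 the means were 71.3 and 78.8% and the groups did not overlap, and in the next bin they were 32.8 and 47.6% and overlapped. The bins of the window from 167189001 on, at and inside 1110018N20Rik, read between 0.829 and 2.39% in both groups. Further into the gene, the bin from 167190601 to 167190800 read 24.7% in Control and 28.3% in Susceptible libraries, with overlap.

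Of 47 CpGs covered in every library at 1110018N20Rik, 35 had a higher Susceptible mean, and 2, at 167188290 and 167188523, had groups that did not overlap. The CpG at 167188523 read 37.0, 17.6, 49.1, 37.3 and 0% in Control and 67.2, 52.9, 63.9 and 62.8% in Susceptible libraries. It had fewer than 20 calls in at least 1 library. Of 29 CpGs with at least 20 calls in every library, the groups did not overlap at 1, that at 167188290. Control 5 and Control 8 were often the extremes: at 167188606 Control 5 read 100% and the other Controls 0 to 7.14%. The difference was 13.9 points on the forward strand, without overlap, and 9.73 points on the reverse strand, where the groups overlapped.

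Ddhd1 encodes a phospholipase A1 that acts on phosphatidic acid. Its window, chr14:45636001-45637000, lies wholly inside the gene, 21.6 kb from the start site. Readings in the Control libraries were 32.1, 33.8, 43.3, 29.3 and 25.5%, a mean of 32.8% ± 6.66, and the Susceptible libraries 52.1, 50.7, 48.7 and 47.5%, a mean of 49.8% ± 2.04. The difference was 17.0 points, and the groups did not overlap in 2 neighbouring 200-bp bins (45636001 to 45636400). The promoter of Ddhd1, with 32 CpGs, read 0.183% ± 0.154 in Control and 1.36% ± 0.433 in Susceptible libraries.

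The window was chosen on the summed calls of its CpGs, so counts of single CpGs of Ddhd1 are a description only. Of 23 covered in every library 22 had a higher Susceptible mean, against 46.9% of all tested CpGs. Their differences ran from -7.91 to 29.2 points, with a median of 14.1 points. Against 0.325% of all tested CpGs with Susceptible higher, 7 of the 23 had groups that did not overlap, all between 45636186 and 45636282. All of these but the one at 45636282 lie in a run of 15 CpGs with gaps of 4 bp or a multiple of it, from 45636186 to 45636258, 11 of the 14 gaps being 4 bp. That run read 15.0, 26.03, 36.8, 22.7 and 21.0% in Control and 41.5, 38.6, 39.5 and 34.5% in Susceptible libraries, where Susceptible 7 was below Control 4. All 12272 calls in it came from the reverse strand. Forward cytosines elsewhere in the window gave -3.21 points with overlap, over only 20 to 99 calls per library. None of them was listed in all 9 libraries, and the reverse strand had 1161 to 2886 calls per library. Without the 0.1% most covered cytosines the difference of the window was 6.58 points.

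Phactr1 encodes a regulator of protein phosphatase 1 and actin that is abundant in the striatum. Its window, chr13:43039001-43040000, lies within the gene, 359126 bp from the outer start. The Control libraries read 54.96, 56.6, 62.9, 57.1 and 47.4%, a mean of 55.8% ± 5.57, and the Susceptible libraries 80.6, 79.2, 84.1 and 83.3%, a mean of 81.8% ± 2.29. The difference was 26.03 points over 126 to 327 calls per library. None of its 14 CpGs had 10 calls in all 9 libraries, so no single CpG was compared across all of them.

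Of 13 cytosines of the Phactr1 window listed in at least 2 libraries of each group, 12 had a higher Susceptible mean. The only bin with enough calls, 43039201 to 43039400, read 57.9 and 82.9% with no overlap between groups. Reverse cytosines differed by 30.3 points without overlap, and forward cytosines, with 13 to 70 calls per library, by 7.48 points with overlap.

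Zfhx3 encodes a large zinc finger and homeobox transcription factor that neurons use in development and in circadian timing. Its CpG at position 108827774 of chromosome 8 lies inside the gene, 113130 bp past the listed start site. The Control libraries read 58.7, 38.6, 55.7, 35.3 and 36.1%, a mean of 44.9% ± 11.4, and the Susceptible libraries 84.6, 90.0, 88.9 and 85.2%, a mean of 87.2% ± 2.67, over 44 to 119 calls. The difference was 42.3 points. Its forward cytosine read 50, 6.67, 28.6, 35.3 and 38.9% in Control libraries, over 15 to 51 calls in the 9 libraries. The reverse cytosine read 62.2, 55.2, 73.8 and 34.9% in Control 2, 3, 4 and 8 and was not listed in Control 5. Susceptible means were 87.6 and 87.1% on the forward and reverse strands. This CpG ranked first among CpGs with a higher Susceptible level once 191491 CpGs read at 0 or 100% in every library were left out, and at place 13 with them kept.

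Most CpGs of the tile around it had a higher Susceptible mean, which is given as a description only. In the tile chr8:108827001-108828000, which contains the chosen CpG, the Control libraries read 64.5, 59.1, 76.9, 56.5 and 43.7%. The Susceptible libraries read 77.8, 78.8, 82.9 and 81.0%, a difference of 19.99 points with a gap of 0.844 points between Control 4 and Susceptible 2. Without Control 5 and Control 8, whose strands disagreed most, the difference was 13.3 points. Of 17 CpGs covered in every library, with the chosen one counted, 15 had a higher Susceptible mean, against 46.9% of all tested CpGs. The groups of 4 did not overlap, at the chosen 108827774 and at 108827785, 108827787 and 108827846, against 0.325% of all tested CpGs with Susceptible higher. The difference was 24.7 points on the forward strand, without overlap, and 15.04 on the reverse strand, where the groups overlapped. Control spread was wide, and Control 8 read 0% at 108827883 and 5.13% at 108827894, where the other Controls read 55.1 to 90.9% and 57.1 to 85.1%.

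**Figure D2:**
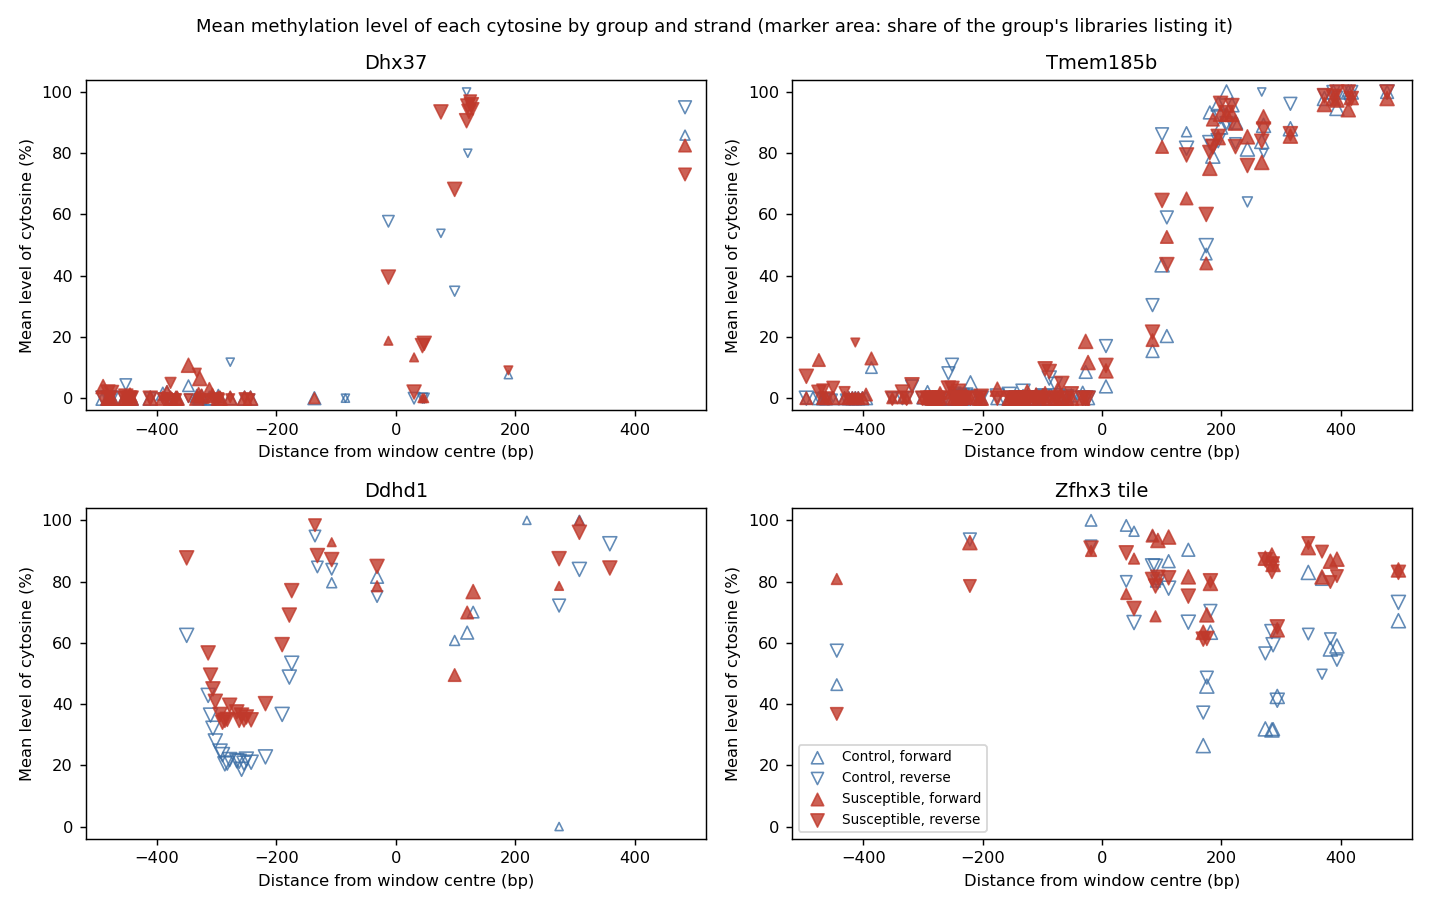
Mean methylation level of each cytosine (percent) against its distance from the window centre (bp) at Dhx37, Tmem185b, Ddhd1 and the Zfhx3 tile. Open blue marks are Control means, filled red marks Susceptible means, upward and downward triangles the forward and reverse strands, and the marker area the share of the group's libraries that list the cytosine. At Tmem185b the groups lie on each other along the edge, at Dhx37 the high reverse cytosines right of the centre are listed mostly in Susceptible libraries, and at Ddhd1 and Zfhx3 runs of cytosines are higher in the Susceptible group.

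A window's level can differ because its cytosines differ or because calls are spread otherwise over them. To separate these parts, each cytosine, by position and strand, was held at its mean level over the libraries that list it, so that only the calls per cytosine still differed. For a cytosine listed in 1 group only, that mean is the group's own level, so the parts cannot be separated there. Of 77 cytosines at Dhx37, 18 were listed in Susceptible libraries only and 3 in Control libraries only. This step of holding cytosines at their mean was added after the values had been seen. It gave 10.3 of the 11.2 points at Dhx37, 8.83 against 8.77 at Tmem185b, 3.13 of 3.41 at Ubxn4 and 12.9 of 17.2 at Sh3gl3, with no overlap between groups at these 4. It gave 4.05 of 11.3 points at 1110018N20Rik, 2.79 of 17.0 at Ddhd1, 1.92 of 26.03 at Phactr1 and 1.963 of 19.99 in the Zfhx3 tile, all with overlap. At the Zfhx3 CpG it gave -0.562 of 42.3 points.

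Among all tiles the difference with cytosines held at their mean had a median of -0.0782 points, and 1.83% of tiles reached 5 points or more. As high as the members were 0.167% of tiles for Dhx37, 0.311% for Tmem185b, 10.4% for Phactr1, 6.06% for Ddhd1 and 10.1% for the Zfhx3 tile. For the remainder of the difference these shares were 36.5, 49.6, 0.00998, 0.367 and 0.0913%. Both parts add up to the difference by which the tiles were chosen, so these shares are a description only. With the same weights in every library, over cytosines listed in at least 2 libraries of each group, the Susceptible group was higher by 0.712 points at Dhx37, -0.0691 at Tmem185b and 0.238 at Ubxn4. The same measure gave 4.25 points at Sh3gl3, 7.26 at 1110018N20Rik, 14.4 at Ddhd1, 32.1 at Phactr1, 16.9 in the Zfhx3 tile and 42.1 at the Zfhx3 CpG.

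**Figure D3:**
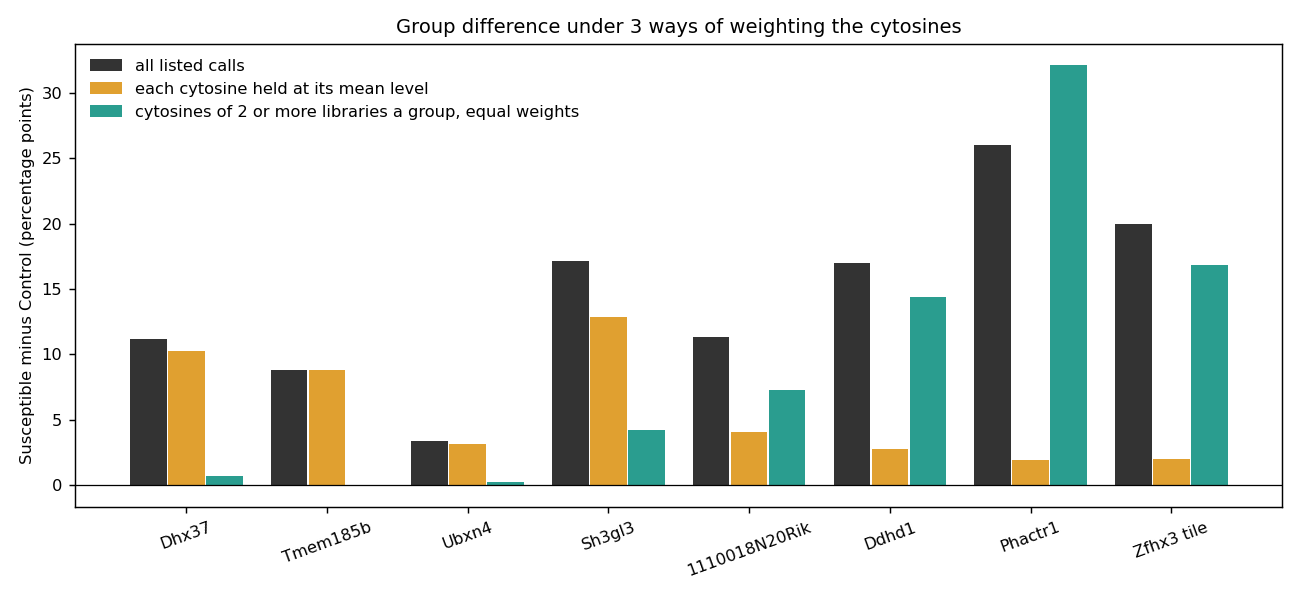
Difference between group means (Susceptible minus Control, percentage points) in the chosen windows under 3 weightings. Dark bars use all listed calls, orange bars hold each cytosine at its mean level so that only calls per cytosine differ, and green bars weight cytosines the same in every library. The green bars are near 0 at Dhx37 (0.712), Tmem185b (-0.0691) and Ubxn4 (0.238), below the dark ones at Ddhd1 (14.4) and the Zfhx3 tile (16.9), and above the dark one at Phactr1 (32.1).

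A shifted stretch was counted over consecutive 200-bp bins with at least 20 calls in every library and groups that did not overlap, which held with Susceptible higher in 0.526% of all such bins. It measured 400 bp at Ddhd1, 200 bp each at Phactr1, 1110018N20Rik and Zfhx3, and 0 bp at Dhx37, Tmem185b, Sh3gl3 and Ubxn4, where no bin of the window qualified. At Dhx37 only 2 bins of the window had enough calls, against 5 at Tmem185b, 6 at Sh3gl3 and 7 at Ubxn4. Those of Dhx37 did not reach its methylated upstream cytosines, so the width there could not be assessed. Bins of 100 bp gave 200 bp at Phactr1, 100 bp at Ddhd1, 1110018N20Rik, Ubxn4 and Zfhx3 and 0 bp at the other 3. At 1110018N20Rik this was another stretch, 167188501 to 167188600, than with bins of 200 bp. Bins of 500 bp gave 500 bp at Ddhd1, Phactr1, 1110018N20Rik and Zfhx3 and 0 bp at the other 4, at 1110018N20Rik from 167188501 to 167189000. Over the gene bodies and 5 kb on each side, 20 of 2409 bins outside the windows (0.83%) had all Susceptible libraries above all Controls, and 9 of them were in Phactr1. All Susceptible libraries were below all Controls in 15 bins (0.623%), against 1.32% of all bins. Such a bin, at 45638801 in Ddhd1, read 82.1% in Control and 64.0% in Susceptible libraries. Around the Phactr1 window other bins also differed, unevenly, beside 25.02 points in the window's own bin. The bins named next are large ones. Bins between them that are not named differed by 7.42 (43036601) to 22.2 points (43035801), and the bin at 43033401 by -1.98 points, all with overlap. The Susceptible mean was higher by 24.6 points in the bin at 43035001, by 26.8 at 43038001, by 27.9 at 43038601 and by 21.4 at 43041201, all with overlap, and by 17.7 at 43036401, without overlap. Of the tiles near the Phactr1 window, which are not all given, those at 43035001, 43036001, 43038001 and 43041001 differed by 18.3, 16.8, 23.2 and 13.6 points. The width given for Phactr1 is therefore that of the separated bin alone.

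In 1-kb tiles outside the chosen windows Phactr1 differed from the other 7 genes. Of 1129 such tiles 72 (6.38%) were higher and 20 (1.77%) lower at an unadjusted p under 0.05 by the quasi-binomial model, against 2.18 and 2.19% of all tiles, and 49 of the 72 lay in Phactr1. None of 28 tiles at Dhx37, 11 at Tmem185b and 12 at Ubxn4 passed that threshold. There were 2 higher and 0 lower of 54 at Ddhd1, 1 and 0 of 21 at 1110018N20Rik, 3 and 3 of 113 at Sh3gl3 and 17 and 16 of 578 at Zfhx3. Median differences in these 7 genes were between -0.756 and 0.129 points.

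**Figure D4:**
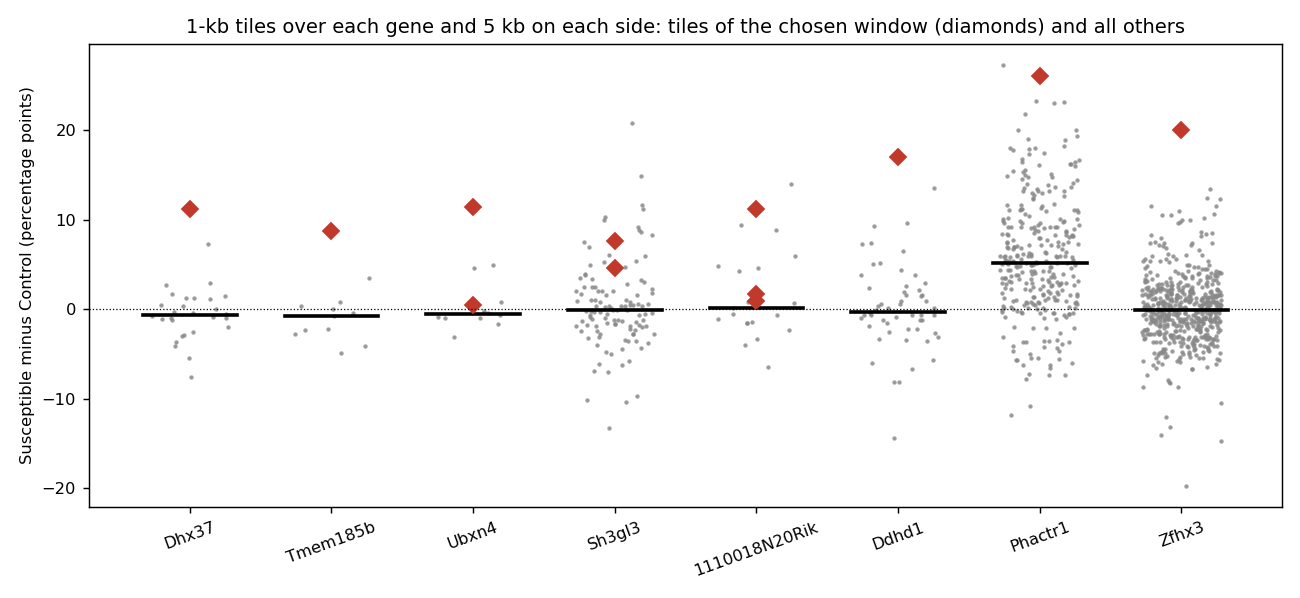
Difference between group means (Susceptible minus Control, percentage points) in each 1-kb tile over the 8 genes and 5 kb on each side. Red diamonds are tiles of the chosen window, grey points all other tiles and black lines their median. The median is 5.17 points in Phactr1 and between -0.756 and 0.129 points in the other 7 genes.

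Phactr1 is a long gene. Of its 312 other tiles 260 had a higher Susceptible mean, against 47.6% of all tiles, with a median difference of 5.17 points and a range from -11.8 to 27.3 points. The gene body read 62.9, 67.7, 65.8, 65.7 and 62.0% in Control, a mean of 64.8% ± 2.31, and 66.7, 65.3, 75.3 and 74.3% in Susceptible libraries, a mean of 70.4% ± 5.13. The groups overlapped: Susceptible 6 and 7 were above every Control library and Susceptible 2 and 3 were not. Over tiles, the median departure from the Control mean was 10.6 and 8.55 points in Susceptible 6 and 7 and 2.30 and 1.11 points in Susceptible 2 and 3. In the single Control libraries it lay between -1.92 (Control 8) and 2.09 points (Control 5). In the chosen window all 4 Susceptible libraries read between 79.2 and 84.1%. That window was chosen for a small p-value, which favours such agreement, so nothing is read from setting it beside the gene body.

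The gene bodies of 10 genes that mark striatal projection neurons were also highest in Susceptible 6 and 7. Their mean was 48.5 and 49.7% in Susceptible 6 and 7, 43.6 and 43.6% in Susceptible 2 and 3, and 42.7 to 46.6% in Control libraries, and 7 of the 10 had a higher Susceptible mean with 0 of 10 free of overlap. The share over all gene bodies was not computed, so nothing is read from such counts; of all tiles 47.6% had a higher Susceptible mean. Of these, 2 named after their values were seen were Ppp1r1b, the gene of the dopamine signalling protein DARPP-32, and Rgs9, a striatal regulator of G proteins. Ppp1r1b read 41.8 and 42.4% in Susceptible 6 and 7 and 24.7 to 31.7% in Control libraries, and Rgs9 78.3 and 79.5% against 68.4 to 72.0%. These 2 had the largest increases of the 10 in the Susceptible mean, 6.39 and 4.43 points. The group difference was 3.95 points at Bcl11b, 3.77 at Drd1, 2.94 at Adora2a and 1.71 at Pdyn. The neuropeptide genes Penk and Tac1 and the dopamine receptor gene Drd2 went the other way, by -5.46, -1.47 and -0.742 points. Cortical neuron bodies read 34.5 to 41.5% in Control and 35.1 to 39.96% in Susceptible libraries, oligodendrocyte bodies 58.7 to 64.5 and 59.1 to 63.0%, and microglia bodies 78.2 to 84.0 and 77.3 to 80.8%. Astrocyte bodies read 64.3 to 66.9 and 60.1 to 64.9%. The Susceptible mean was higher at 2 of 6 cortical neuron, 3 of 8 oligodendrocyte, 0 of 6 microglia and 0 of 6 astrocyte genes. The part of cell mixture in the Phactr1 values was not tested.

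**Figure D5:**
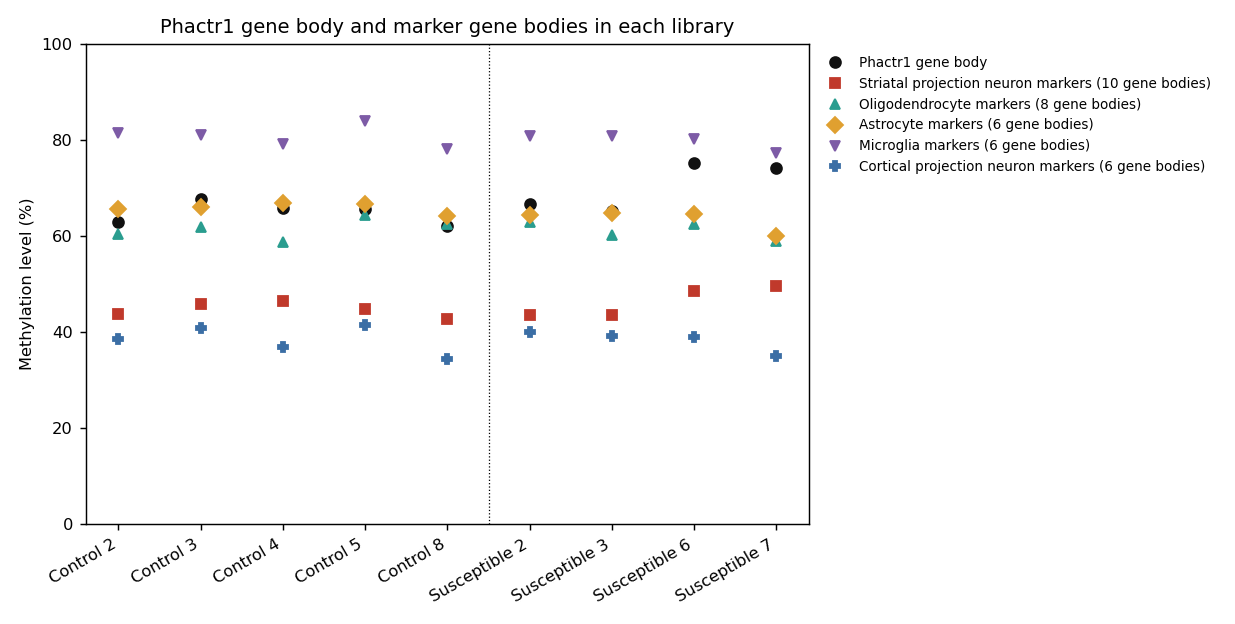
Methylation level (percent) of the Phactr1 gene body and the mean over gene bodies of 5 marker lists in each library. Control libraries are left and Susceptible libraries right of the dotted line, and each mark is one library. Phactr1 reads 75.3 and 74.3% and the striatal list 48.5 and 49.7% in Susceptible 6 and 7, above the 5 Control libraries.

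The gene starts of 35 relatives of the members, such as other DEAH-box helicases, endophilins and UBX proteins, gave little. None was higher and 3 were lower at an unadjusted p under 0.05 by the quasi-binomial model, against 2.22 and 2.6% of all 30878 gene starts, and 0 passed after Benjamini-Hochberg adjustment (smallest adjusted p = 0.97). Over all gene starts 0 passed the adjusted threshold by this model (1487 at an unadjusted p under 0.05) and 0 by limma (1186). The 3 lower ones were Sh3glb2 (14.8% ± 4.5995 in Control and 10.3% ± 2.23 in Susceptible libraries), Sec23ip (4.20% ± 1.23 and 2.58% ± 0.377) and Dhx40 (13.3% ± 6.10 and 8.08% ± 1.68), each with groups that overlapped. The median difference was -0.292 points over the relatives and -0.103 over all gene starts. At gene starts of the striatal markers 0 of 10 were higher and 0 lower at an unadjusted p under 0.05 (4 of 10 had a higher Susceptible mean), with list means of 7.77 to 10.02% in Control and 8.80 to 10.2% in Susceptible libraries.

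Among gene starts, the pattern over the 9 libraries most like that of a window, by mean absolute difference in level, was that of Gm45871 for Dhx37 (2.64 points), A930033C23Rik for Ubxn4 (0.821) and Gm36495 for Sh3gl3 (3.53). It was Cd44 for 1110018N20Rik (2.71 points), Tmem233 for Ddhd1 (4.30), Bpifc for Phactr1 (6.38) and Vmn1r61 for the Zfhx3 CpG (11.3). Only Ubxn4 had near neighbours, with 2468 of 30878 gene starts within 2 points. Just outside the choice stood a tile at Gng7 with 20.7% ± 3.77 in Control and 39.0% ± 4.98 in Susceptible libraries, the gene end window of Dhx37 with 6.41% ± 1.14 and 11.1% ± 1.44, and a CpG at Susd4 with 15.1% ± 13.9 and 79.1% ± 9.14.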

How the data were processed

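CpG methylation calls of 9 libraries were used, 5 Control and 4 Susceptible. Per the file headers, the deposited tables give for each CpG cytosine, by strand, the count of calls and the percent read as C and as T; the submitters' processing notes name Bismark, Bowtie, Picard and build mm10, with no versions. Every listed cytosine had at least 10 calls, a minimum applied before deposit. Methylated calls were the count times the percent of C, and strands of a CpG were added except where they are given apart. All 396389 listed CpGs in 32619 promoter windows fell on a CG of GRCm38.p6, the assembly used for names, bounds and sequences. Exons and introns were not assigned.

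Tiles (3 CpGs and 20 calls in every library) and gene start windows were tested with a quasi-binomial model, its dispersion moderated by limma's squeezeVar method (limma 3.58.1, NumPy 2.4.6), and Benjamini-Hochberg adjustment over all features. The code was tested on simulated data. For single CpGs, 191491 at 0 or 100% in every library were left out; this was decided after the Zfhx3 CpG had been seen at rank 47 with them and 3 without. Replicate numbers 2 and 3 occur in both groups, and deviations of same-numbered libraries correlated at 0.0258 and -0.0171 across tiles, so they were not treated as pairs. The members and the gene lists were chosen with earlier results of these data known. Genes named beside the 8 members were neighbours within 5 kb, the most similar gene start of each and at most 3 relatives; the features just outside the choice and the striatal marker genes were named outside this rule, the markers after their values were seen. A neighbour and a similar gene start that this rule names are not reported here. Alternatives were limma on logit levels, other filters, tile and bin sizes, single strands, equal weights, left-out libraries and, added after the values were seen, held and equal cytosine weights.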

Additional observations from a re-analysis of the deposited data

Results flagged for a closer look

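Each group of libraries at each locus, 18 groups in all with the Zfhx3 tile, was examined for a library far from the others by Dixon's criterion at 95%, which chance alone meets in about 1 in 20 groups. At 1110018N20Rik, Control 4 stood above the other Control libraries with 35.1%, a gap of 0.716 of the group's range. At Sh3gl3, Susceptible 6 stood above the other Susceptible libraries with 65.2%, a gap of 0.871 of the range. Without Susceptible 6 the difference at Sh3gl3 was 14.7 points.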

How the results depend on the processing

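Leaving out 1 library cannot turn a difference between groups that were chosen apart, and only its size is given: 10.4 to 12.2 points at Dhx37, 7.94 to 9.74 at Tmem185b, 23.9 to 27.8 at Phactr1, 15.2 to 19.6 at Ddhd1, 10.7 to 12.2 at 1110018N20Rik, 14.7 to 19.4 at Sh3gl3, 3.01 to 3.75 at Ubxn4 and 39.9 to 45.7 at Zfhx3. Without Control 5 and 8 together the differences were 10.6, 8.66, 23.7, 13.4, 10.5, 15.04, 3.17 and 36.1 points in the same order, and 13.3 in the Zfhx3 tile. Over CpGs listed in all libraries they were 1.45 at Dhx37, 9.10 at 1110018N20Rik and 0.785 at Ubxn4, and with at least 20 calls per cytosine 14.0 at Dhx37 and 11.5 at Tmem185b. Forward cytosines gave 1.02 at Dhx37, 5.45 at Tmem185b, 7.48 at Phactr1, -3.21 at Ddhd1, 13.9 at 1110018N20Rik, 2.20 at Sh3gl3, 6.12 at Ubxn4 and 55.7 at Zfhx3, and reverse cytosines 18.2 at Dhx37 and 0.259 at Ubxn4. On the forward strand the groups overlapped at all of these but 1110018N20Rik and Zfhx3, and on the reverse strand at Ubxn4 but not at Dhx37. With each CpG weighted equally the differences were 14.8 at Dhx37, -0.67 at Tmem185b, 3.65 at 1110018N20Rik, 7.42 at Sh3gl3 and 4.804 at Ubxn4. Without the 0.1% most covered cytosines Ddhd1 gave 6.58. Of the settings added after the data were seen, held cytosines gave 1.92 at Phactr1, 2.79 at Ddhd1, 4.05 at 1110018N20Rik, 1.963 in the Zfhx3 tile and -0.562 at the Zfhx3 CpG. Equal weights across libraries gave 0.712 at Dhx37, -0.0691 at Tmem185b, 32.1 at Phactr1, 7.26 at 1110018N20Rik, 4.25 at Sh3gl3 and 0.238 at Ubxn4. Cytosines listed in all libraries gave 0.727, 5.33, 0.662 and 55.7 at Dhx37, 1110018N20Rik, Ubxn4 and Zfhx3. The cause was not tested beyond these weightings.

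With the replicate block, which can use only numbers 2 and 3, the difference was 8.19 at Dhx37 and 10.4 at Sh3gl3, and 276986 tiles had both Susceptible libraries above the Control of their number; the other 7 differences stayed within the spread between libraries. The number of tiles higher at an unadjusted p under 0.05 was 11188 by limma, 34386 without Control 5 and 8, 10253 with 20 calls per cytosine, 36276 with 1 CpG and 1 call, 14642 with 5 CpGs and 50 calls, and 10995 (without Susceptible 6) to 32629 (without Control 5) without 1 library. Without Control 4, 1 tile passed adjustment (adjusted p = 0.0369, quasi-binomial model). Tiles with groups apart numbered 37176 without Control 5 and 8, 2700 with 20 calls per cytosine, and 9258 to 16082 without 1 library, where fewer libraries have to be apart.

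Widths also changed with a looser criterion, a mean difference at least 50% of the window's: 400 bp at 1110018N20Rik and Zfhx3 and 200 bp at Sh3gl3 and Ubxn4. Cytosines under 10 calls are missing from the tables, so a level rests on the cytosines a library lists.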
